A study of Mus musculus with 12 samples.

Results

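The synaptotagmins examined here are 10 brain-expressed members of a family of vesicle proteins, *Syt1*, *Syt3*, *Syt4*, *Syt5*, *Syt6*, *Syt7*, *Syt9*, *Syt10*, *Syt11* and *Syt17*. They were taken by gene symbol from the 37991 Ensembl genes that were counted, and all 10 passed the expression filter that left 16399 genes for testing. Poly(A) RNA was sequenced from whole hippocampi of 12 C57BL/6N mice aged 6 to 7 months by the labels (male by the study's methods, which give another range of ages), 6 labelled Wildtype (*Gadd45a*-WT) and 6 labelled *Gadd45a*-/- (*Gadd45a*-KO), bred as siblings from heterozygous parents. Every mouse of both genotypes had been trained in passive avoidance (PA), in which entry into a dark compartment is followed by a foot shock, and was killed 1 h later. In the knockout allele, which all cells of the animal carry, the first 3 exons of *Gadd45a* are replaced by a PGK-neomycin cassette and exon 4 remains. Untrained mice were not analysed here, so the libraries compare the genotypes after training only.

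Synaptotagmins carry a pair of C2 domains, which in many members bind calcium and then membrane lipids and SNARE proteins. In neurons the fast calcium sensors start transmitter release within a moment of calcium entry, slower members act in delayed release, vesicle refilling and the traffic of receptors, and others lack calcium binding altogether. Hippocampal neurons use several of them at once, so the family is often read as a set of paralogs with different jobs on a shared fusion machinery.

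Reads on *Gadd45a*, the targeted gene, ran opposite to the labels, so the libraries are named by label throughout (WT-labelled and KO-labelled). Levels are given as CPM, the reads on a gene scaled to the library's total with TMM factors. *Gadd45a* (ENSMUSG00000036390, minus strand, chr6:66985090-66987451 of NCBIM37) was at 2.58 ± 0.481 CPM in the 6 WT-labelled libraries and at 21.4 ± 1.07 CPM in the 6 KO-labelled ones (mean ± SD), and its log2 fold change was 3.06. Counts per gene do not separate the remaining exon from the replaced ones. Between 44594261 and 55540601 reads per library fell on genes, and 1 read was worth 0.0180 to 0.0223 CPM. Summed markers of dentate granule cells lay between 289 and 567 CPM and those of CA pyramidal cells between 584 and 835 CPM over the 12 libraries, so the tissue carried the defining transcripts of the hippocampus. Replicates 2 and 3 of the KO-labelled libraries stood apart. Their 10 thalamic markers summed to 452 and 678 CPM, against 157 to 212 CPM in the other 10 libraries, and in replicate 3 the 5 oligodendrocyte markers summed to 6898 CPM, against 2180 to 3539 CPM. Of 9 marker lists of cell types, 0 genes passed 1% FDR in edgeR or DESeq2. At an unadjusted p under 0.05 in edgeR, 6 of 10 thalamic, 5 of 5 oligodendrocyte and 2 of 5 astrocyte markers were higher. So were 1 of 7 tested choroid plexus, 1 of 9 CA pyramidal and 1 of 5 endothelial markers, and 0 markers of these lists were lower. In the dentate granule cell, interneuron and microglia lists 0 markers reached it. The share of all tested genes at this unadjusted p was not counted, so these counts have no background beside them. Results are given with and without KO-labelled replicates 2 and 3 where these libraries matter.

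The ends of the transcripts are shown first, because reads were counted within annotated exons and the annotated 3′ end limits what is counted for each member. Shown are the last 30 bases of the coding transcript with the longest annotated 3′UTR, for 6 members, 5′ to 3′ on the transcribed strand of NCBIM37. Capitals mark a canonical polyadenylation hexamer, AATAAA.
Syt10: ctcttggcttatttggcttatttgtcttca
Syt9: tttcctagtaaatattccttttgaaaaata
Syt17: gtgtctcctgcctccctggaggtgacctga
Syt1: actcAATAAAaatgttttatttcctgttga
Syt7: gtggtAATAAAtgtccatcttcagaatcag
Syt11: agAATAAAgactgattctgattaaataggc
The window of *Syt10* lies at chr15:89612824-89612853, ends 182 nt past the coding sequence, and holds neither AATAAA nor the common variant ATTAAA. The windows of *Syt9* (chr7:114692141-114692170) and *Syt3* hold neither hexamer either. That of *Syt17* (chr7:125525370-125525399) ends with the coding sequence itself, since its annotated 3′UTR is 0 nt long. AATAAA lies in the windows of *Syt1* (chr10:107934706-107934735), *Syt7* (chr19:10527642-10527671), *Syt11* (chr3:88548622-88548651), *Syt4* and *Syt5*, and ATTAAA in that of *Syt6*. Either hexamer is thus found in 60.0% of the members, against 65.9% of the 14899 tested genes with a coding transcript. The hexamers were searched on the transcribed strand only, and a missing match says only that these letters are not in this window. The annotated 3′UTR of *Syt10* is short in the family, with a median of 2252 nt over the 10 members, and 10.2% of the tested coding genes had 182 nt or less. Reads past the annotated ends were not analysed here.

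Of the 10 synaptotagmins, only *Syt10* passed the threshold of 1% false discovery rate (FDR). It was lower in the KO-labelled libraries, and no member was higher (edgeR's quasi-likelihood test, Benjamini-Hochberg adjustment over all genes tested). Among all genes tested, 2.62% were lower and 0.0244% higher at 1% FDR in edgeR. DESeq2 likewise called 1 member lower and 0 higher at 1% FDR, beside 661 lower and 19 higher among all genes. At an unadjusted p under 0.05 in edgeR, 1 member was lower (*Syt10*) and 1 higher (*Syt9*). The share of all tested genes at this unadjusted p was not counted, so these counts have no background beside them. The log2 fold change, KO-labelled over WT-labelled, was negative for 5 members and positive for 5. Its median was -0.0009 over the members, beside 0.0033 over all genes tested. Every KO-labelled library lay below every WT-labelled library for 1 of the 10 members, where 3.12% of all tested genes had this pattern. The opposite order was found for 0 of them, beside 0.183% of all tested genes. Summed over the members, the WT-labelled libraries ran from 3339 to 3767 CPM with a median of 3532 CPM, and the KO-labelled ones from 3348 to 3742 CPM with a median of 3608 CPM, so the second range lay inside the first. *Syt1*, *Syt7* and *Syt11* made 88.6 to 90.7% of this sum in each library and *Syt10* 0.0248 to 0.121%. The sum therefore reflects mainly those 3 genes and could not show a change of *Syt10*.

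**Figure D1:**
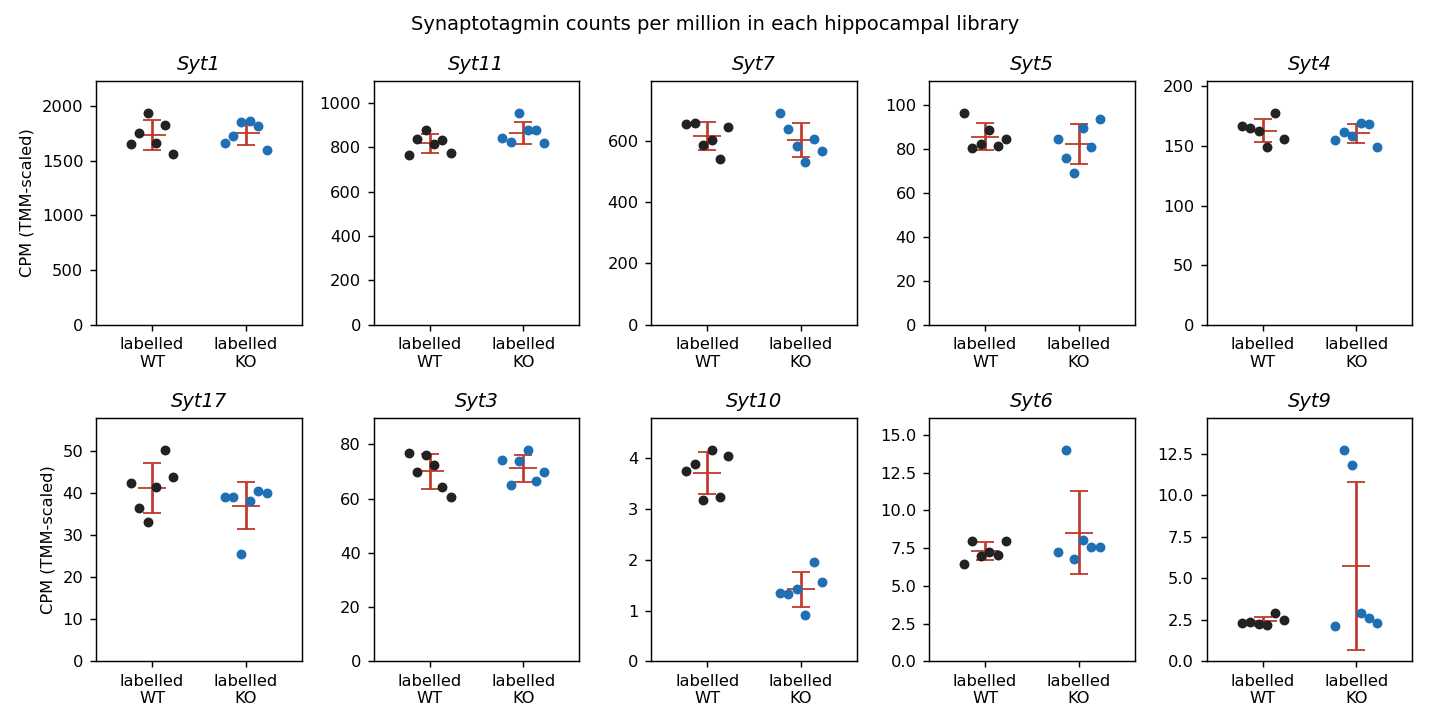
CPM (TMM-scaled, linear axes from 0) of the 10 synaptotagmins, 1 point per hippocampal library in the order of the replicate numbers, 6 labelled WT (black) and 6 labelled KO (blue), with the mean and SD in red. The labels separate for *Syt10* only, at 3.18 to 4.17 against 0.905 to 1.95 CPM, and for *Syt9* 2 libraries labelled KO reach 11.8 and 12.8 CPM.

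*Syt10* was 2.61-fold lower in the KO-labelled libraries, where reads on *Gadd45a* were higher. The protein is a calcium sensor of a secretory route for insulin-like growth factor I in olfactory bulb neurons, and its transcript is known for its induction by seizures in the hippocampus. *Syt10* (ENSMUSG00000063260) lies on the minus strand at chr15:89612824-89672291 and has an exonic length of 1845 nt. In the WT-labelled libraries the lowest value was 3.18 CPM, the median 3.81 CPM and the highest 4.17 CPM, from 170 to 231 reads. In the KO-labelled libraries they were 0.905, 1.39 and 1.95 CPM, from 44 to 90 reads. The groups thus did not overlap, and even the highest KO-labelled library (replicate 5) stayed below the lowest WT-labelled one (replicate 3). The means were 3.70 ± 0.413 and 1.42 ± 0.340 CPM (SD, n = 6 each). On the log2 scale this was a change of -1.38 (standard error, SE, 0.14, 95% interval -1.69 to -1.08, adjusted p = 4.17e-05 in edgeR). An exact permutation of the labels over mean log2 CPM, two-sided, gave p = 0.00216, the smallest that 6 libraries against 6 allow. Among the 16399 genes tested, *Syt10* ranked 41st by adjusted p and 34th from the bottom by log2 fold change. Without KO-labelled replicates 2 and 3, which lay at 1.32 and 1.43 CPM near the middle of their group, the log2 fold change was -1.36 (adjusted p = 0.000593 in edgeR). No annotated gene overlaps *Syt10*. Beside it, the 5 dentate granule cell markers had a median log2 fold change of -0.18, with 5 negative and 0 positive. The median of the 9 interneuron markers was -0.047, with 8 negative and 1 positive. That of the 9 CA pyramidal cell markers was 0.0051, with 4 negative and 5 positive. The part of these markers in the level of *Syt10* was not tested. In whole tissue, fewer cells that express a gene and less of its RNA per cell cannot be told apart.

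*Syt10* was then set against each paralog within the same library, so that library size and scaling have next to no part in the comparison. *Syt10* was named for this comparison with its own change already known, so the ratios show where it stands in the family rather than add support for the change. All 9 ratios were lower in the KO-labelled libraries, with every KO-labelled library below every WT-labelled one in all 9. Against *Syt1*, the most abundant member, the mean log2 ratio went from -8.86 ± 0.267 to -10.26 ± 0.385 (SD, n = 6 each), a difference of -1.41. Against *Syt3* and *Syt6*, which share the cysteine-linked N-terminus of *Syt10*, the differences were -1.41 and -1.57. The differences against *Syt4*, *Syt5*, *Syt7* and *Syt11* ran from -1.47 to -1.32. The ratio to *Syt17* moved least, by -1.23, and that to *Syt9* most, by -2.20. For each ratio a two-sided exact permutation test over libraries gave p = 0.00216, the smallest it can give, and the same after Benjamini-Hochberg adjustment over the 9 ratios. The ratio to *Syt9*, from 0.61 ± 0.259 to -1.59 ± 1.27 (SD, n = 6 each), is the one that rests on KO-labelled replicates 2 and 3, since without them its difference was -1.43, within the -1.44 to -1.33 found for the other 8 paralogs (exact permutation p = 0.00952 for each, the smallest with 4 libraries against 6).

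**Figure D2:**
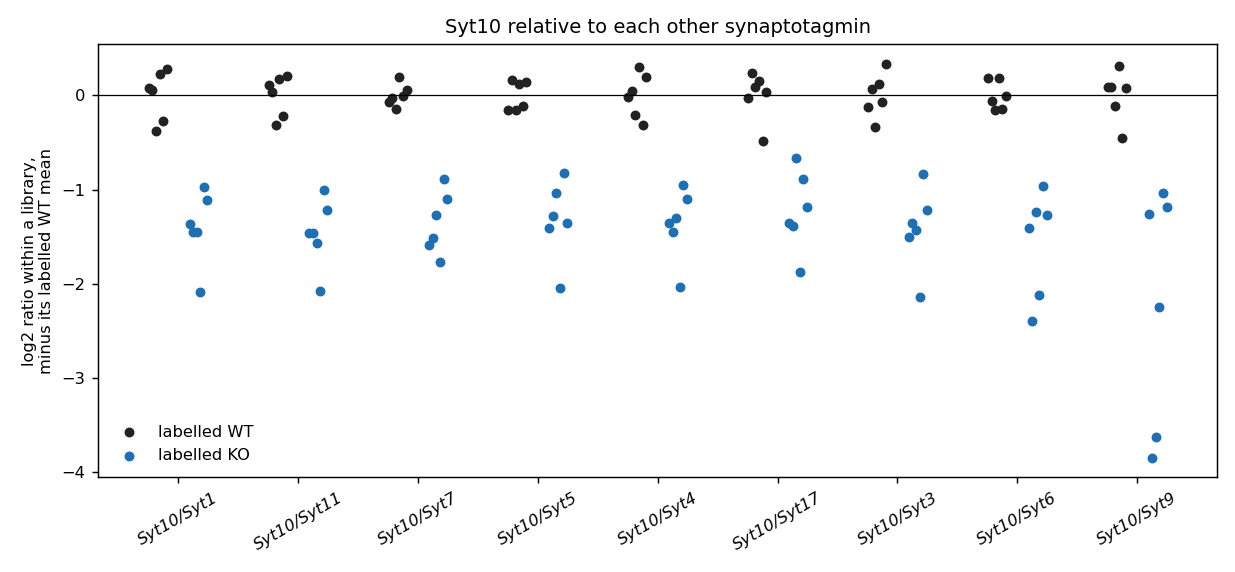
Log2 ratio of *Syt10* to each of the other 9 synaptotagmins within a library, minus the mean of that ratio in the 6 libraries labelled WT, 1 point per library (black WT, blue KO). All 6 points labelled KO lie below all 6 labelled WT for every ratio, and 2 of them fall farther for *Syt9*.

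The main calcium sensors of transmitter release in the family did not pass the test. *Syt1*, the sensor of synchronous release at most forebrain synapses (ENSMUSG00000035864, chr10:107934706-108448038), ranged from 1558 to 1937 CPM with a median of 1705 CPM in the WT-labelled libraries and from 1600 to 1863 CPM with a median of 1771 CPM in the KO-labelled ones. The second range lay wholly inside the first. A log2 fold change of 0.019 was found for *Syt1* (95% interval -0.10 to 0.14, adjusted p = 0.939 in edgeR), an interval that leaves out a change as large as that of *Syt10*. *Syt7*, a slow and high-affinity sensor of delayed release and facilitation (ENSMUSG00000024743, chr19:10463580-10527671), had 541 to 656 CPM with a median of 624 CPM in the WT-labelled libraries and 530 to 691 CPM with a median of 594 CPM in the KO-labelled ones. The groups overlapped almost entirely. Its log2 fold change was -0.030 (95% interval -0.17 to 0.11, adjusted p = 0.914 in edgeR).

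*Syt9* (ENSMUSG00000062542, chr7:114514242-114692170) had the widest spread of the members among the KO-labelled libraries. Its name and that of *Syt5* were exchanged in part of the literature, so no role is given for either. The WT-labelled libraries had 2.18 to 2.89 CPM with a median of 2.32 CPM. The KO-labelled libraries had 2.14 to 12.8 CPM with a median of 2.76 CPM. The high values were in 2 libraries, replicate 2 with 12.8 CPM and replicate 3 with 11.8 CPM, while the other 4 lay between 2.14 and 2.90 CPM, close to the WT-labelled range. The means were 2.41 ± 0.258 and 5.76 ± 5.07 CPM (SD, n = 6 each), with a coefficient of variation of 10.7% in the WT-labelled group and 88.0% in the KO-labelled one, or 13.3% in the latter without replicates 2 and 3. A log2 fold change of 1.26 (SE 0.45, 95% interval 0.29 to 2.22) did not pass, with an unadjusted p of 0.0141 and an adjusted p of 0.184 in edgeR, and an exact permutation p of 0.143. Without replicates 2 and 3 it was 0.053 (SE 0.11, adjusted p = 1.00 in edgeR), with 2.499 ± 0.333 CPM (SD, n = 4). These are the 2 libraries with the raised thalamic markers. Of those 10 markers, 10 had a positive log2 fold change with a median of 0.89, 0 passed 1% FDR in edgeR or DESeq2 and 6 had an unadjusted p under 0.05. The transcription factor gene *Tcf7l2* reached 31.5 CPM at the highest, against 3.47 to 5.30 CPM in the WT-labelled libraries, and no thalamic marker was at 0 in all libraries. The part of the thalamic markers in the level of *Syt9* was not tested. *Syt5* (ENSMUSG00000004961, chr7:4491370-4498169) had 80.4 to 96.6 CPM with a median of 83.6 CPM in the WT-labelled libraries and 69.1 to 93.8 CPM with a median of 82.8 CPM in the KO-labelled ones. Only KO-labelled replicates 2 and 3, with 75.9 and 69.1 CPM, lay below the range of the WT-labelled libraries. Over all libraries *Syt5* had a log2 fold change of -0.058 (95% interval -0.20 to 0.089, adjusted p = 0.815 in edgeR), the sign of which turned without these 2 libraries, at 0.027.

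*Syt6*, *Syt3* and *Syt10* belong to the class of synaptotagmins whose N-termini can be joined by disulfide bonds. *Syt6*, known from the acrosome of sperm (ENSMUSG00000027849, chr3:103379154-103449490), had 6.47 to 7.99 CPM with a median of 7.14 CPM in the WT-labelled libraries and 6.77 to 14.0 CPM with a median of 7.56 CPM in the KO-labelled ones. A single library, KO-labelled replicate 2, gave the highest value, and the next was 8.003 CPM. The means of 7.29 ± 0.594 and 8.53 ± 2.72 CPM (SD, n = 6 each) gave a log2 fold change of 0.22 (95% interval -0.10 to 0.55, adjusted p = 0.591 in edgeR), and 0.059 without replicates 2 and 3. Replicate 3, in which the thalamic sum was highest, had the lowest *Syt6* of the KO-labelled libraries, so the raised levels of *Syt6* and *Syt9* were shared in replicate 2 only. The part of the thalamic markers in the level of *Syt6* was not tested. *Syt3*, which takes part in the calcium-dependent removal of receptors from the membrane (ENSMUSG00000030731, chr7:51639472-51655557), ran from 60.4 to 76.8 CPM with a median of 71.1 CPM in the WT-labelled libraries and from 65.2 to 78.1 CPM with a median of 71.7 CPM in the KO-labelled ones. Its log2 fold change was 0.026 (95% interval -0.11 to 0.16, adjusted p = 0.925 in edgeR). Of these 3 genes only *Syt10* passed the test, and its ratios to the other 2 differed between the labels as given above.

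**Figure D3:**
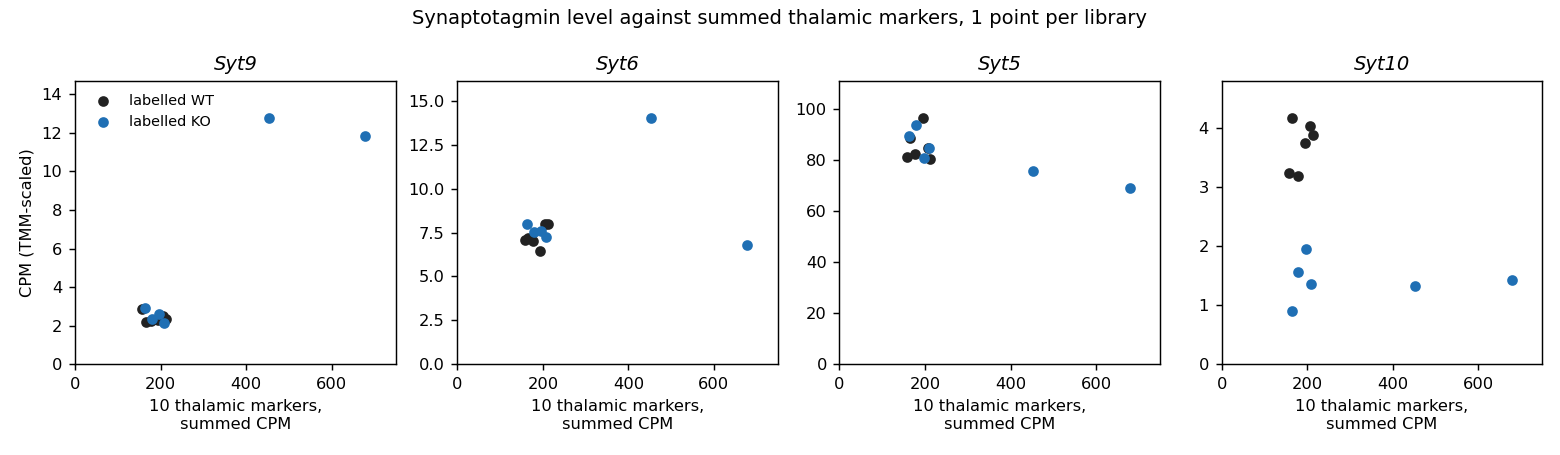
CPM of *Syt9*, *Syt6*, *Syt5* and *Syt10* against the summed CPM of 10 thalamic markers, 1 point per library (black labelled WT, blue labelled KO, linear axes from 0). The 2 libraries labelled KO at 452 and 678 on the horizontal axis carry the high *Syt9* values and the lowest *Syt5* values, whereas *Syt10* separates the labels also among the other 10 libraries.

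The members that do not bind calcium, *Syt4*, *Syt11* and *Syt17*, did not pass the test either. *Syt4*, which acts on dense-core vesicles that carry neurotrophins (ENSMUSG00000024261, chromosome 18), had 149 to 178 CPM with a median of 164 CPM in the WT-labelled libraries and 149 to 170 CPM with a median of 160 CPM in the KO-labelled ones. Its log2 fold change of -0.021 (95% interval -0.12 to 0.075, adjusted p = 0.914 in edgeR) had the narrowest interval of the 10 members. *Syt11*, a brake on vesicle endocytosis (ENSMUSG00000068923, chr3:88548622-88636219), had 767 to 878 CPM with a median of 826 CPM in the WT-labelled libraries and 818 to 956 CPM with a median of 859 CPM in the KO-labelled ones. Of the KO-labelled libraries, 5 of 6 lay above the WT-labelled mean, and the log2 fold change of 0.081 (95% interval -0.018 to 0.18) had an adjusted p of 0.493 in edgeR. *Syt17*, which lacks the membrane anchor of the family (ENSMUSG00000058420, chr7:125525370-125587066), had 33.0 to 50.3 CPM with a median of 41.9 CPM in the WT-labelled libraries and 25.5 to 40.4 CPM with a median of 39.0 CPM in the KO-labelled ones. All 6 KO-labelled libraries lay below the WT-labelled mean of 41.2 CPM, but only replicate 3, with 25.5 CPM, lay below the whole WT-labelled range. For *Syt17* the log2 fold change was -0.16 (SE 0.11, adjusted p = 0.626 in edgeR), and -0.066 without replicates 2 and 3. Genes on the opposite strand overlap exons of *Syt4*, *Syt6* and *Syt7* by 575, 503 and 384 nt, and the counting took the strand into account.

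**Figure D4:**
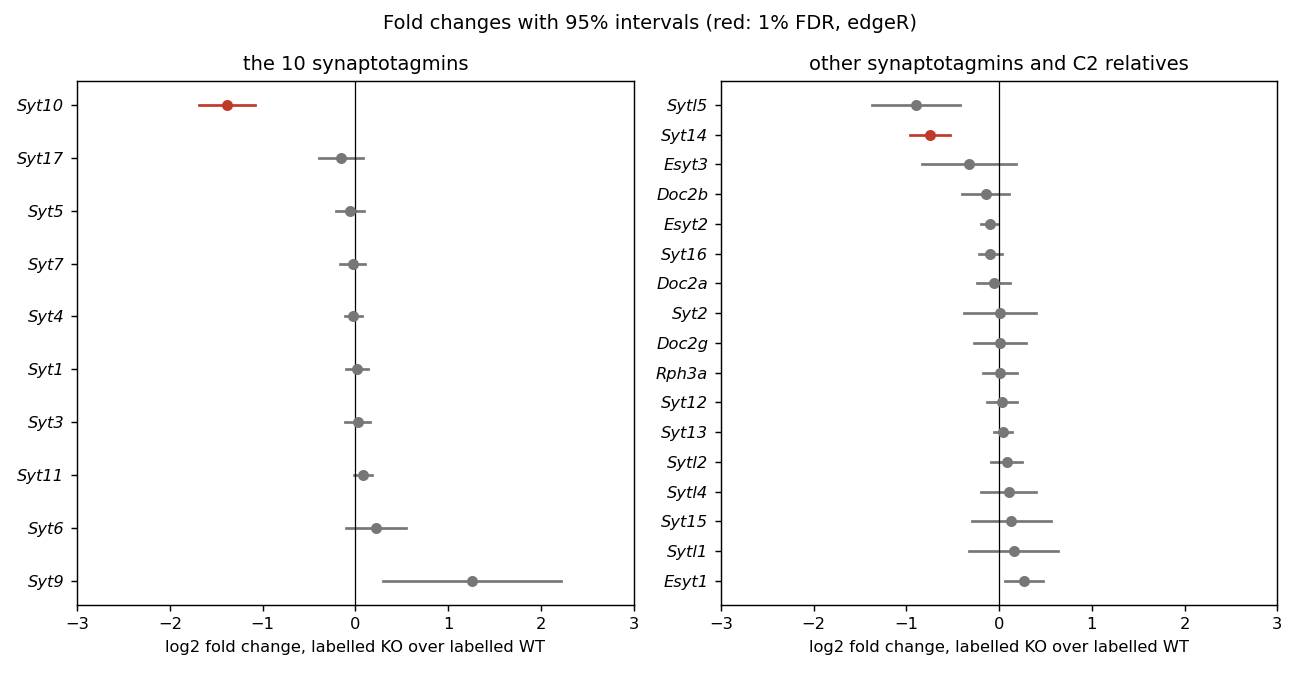
Log2 fold change (KO-labelled over WT-labelled) with its 95% interval from edgeR for the 10 synaptotagmins (left) and 17 related genes (right), with genes past 1% FDR in red. *Syt10* at -1.38 stands apart from the 8 members between -0.16 and 0.22, *Syt9* has the widest interval, and *Syt14* at -0.74 is the related gene that passed.

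Over the 8 members other than *Syt9* and *Syt10*, log2 fold changes ran from -0.16 to 0.22, their 95% bounds from -0.40 to 0.55, and their adjusted p-values from 0.493 to 0.939 in edgeR. A p that misses the threshold does not show that these genes were equal, but the intervals bound the change of each below that of *Syt10*.

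Per length, the members spanned more than 2 orders of magnitude. RPKM, the CPM per kilobase of exon, put *Syt1* first in the WT-labelled libraries with 208 ± 16.4 RPKM (SD, n = 6), followed by *Syt11* with 156 ± 7.94 RPKM and *Syt7* with 88.2 ± 6.63 RPKM. *Syt5* (49.1 RPKM), *Syt4* (41.7 RPKM), *Syt17* (25.5 RPKM) and *Syt3* (22.4 RPKM) formed the middle, and *Syt10* (2.01 ± 0.224 RPKM), *Syt6* (1.26 RPKM) and *Syt9* (0.605 RPKM) the bottom. Neighbours in this order did not overlap between libraries except *Syt17* and *Syt3*. In the KO-labelled libraries the first 7 places were held by the same genes in the same order, and *Syt10*, at rank 8 in the WT-labelled ones, came after *Syt6*, with 0.769 ± 0.184 against 1.48 ± 0.472 RPKM (SD, n = 6 each). This crossing depends on the annotated exonic lengths, 1845 nt for *Syt10* and 5765 nt for *Syt6*. In CPM, *Syt10* was below *Syt6* in the WT-labelled libraries already, with means of 3.70 and 7.29 CPM. Whether the annotated ends are complete was not tested, so the order between genes holds for the annotated lengths only. Every KO-labelled library had less *Syt10* than any had *Syt6*, at most 1.06 against at least 1.17 RPKM. By the mean over all 6 libraries *Syt10* also came after *Syt9* (1.45 ± 1.28 RPKM), at rank 10, but this place rests on KO-labelled replicates 2 and 3. Without them *Syt10* had 0.781 ± 0.236 RPKM and *Syt9* 0.628 ± 0.0837 RPKM (SD, n = 4 each), which put *Syt10* at rank 9, and the ranges of 0.491 to 1.06 and 0.537 to 0.729 RPKM overlapped.

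Deviations from the label means show which members varied together over the 12 libraries. Values of 1 library share that library's depth and scaling. Among the 45 pairs of members, Pearson's r of the deviations of log2 CPM was highest for *Syt1* and *Syt11* at 0.84, and lowest for *Syt5* and *Syt9* at -0.74. Without KO-labelled replicates 2 and 3, which hold the 2 highest *Syt9* and the 2 lowest *Syt5* values, the r of this pair was -0.25 over 10 libraries, that of *Syt1* and *Syt11* was 0.91, and the lowest was -0.68 for *Syt5* and *Syt11*. For *Syt10*, r with the other members ran from -0.44 for *Syt1* to 0.43 for *Syt7*, and without these 2 libraries from -0.50 for *Syt3* to 0.48 for *Syt7*. Of all tested genes, those with deviations most like those of *Syt10* were the scaffold gene *Magi1* (r = 0.96), *Tbc1d8b* (0.93), the adaptor gene *Dok5* (0.93), the potassium channel gene *Kcnu1* (0.90) and the phosphatase gene *Ppm1d* (0.90), over 12 libraries. These were the highest values over all genes tested, and 0 of the 5 genes passed 1% FDR between the labels, with adjusted p-values from 0.0353 to 0.997 in edgeR. The r that the highest of so many genes reaches by chance over 12 libraries was not computed, so these 5 are a ranking only.

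Among the other synaptotagmins and related proteins with C2 domains, 19 genes were listed and 17 tested. *Syt14*, a member without calcium binding, was lower in the KO-labelled libraries at 1% FDR, where reads on *Gadd45a* were higher, and 0 of the 17 were higher (edgeR, with 3 lower and 1 higher at an unadjusted p under 0.05, and 1 lower and 0 higher in DESeq2). The shares of all genes tested were 2.62% lower and 0.0244% higher at 1% FDR in edgeR, so 1 call in 17 does not set the list apart. DESeq2 called 661 lower and 19 higher among all genes, and the share at the unadjusted p was not counted. *Syt14* (ENSMUSG00000016200, chr1:194723404-194861911) had 5.39 to 6.86 CPM with a median of 5.73 CPM in the WT-labelled libraries and 2.92 to 4.25 CPM with a median of 3.54 CPM in the KO-labelled ones. The groups did not overlap. *Syt14* was 1.67-fold lower, with a log2 fold change of -0.74 (SE 0.10, adjusted p = 0.000465 in edgeR), and -0.66 (adjusted p = 0.00352 in edgeR) without replicates 2 and 3. The last 30 bases of *Syt14* (chr1:194723404-194723433) hold neither hexamer, as for *Syt10* and for *Syt3*, *Syt9* and *Syt17*, which did not pass:
Syt14: aacaccctaccacaacgcttcacatcagcg
The most abundant genes of this list overlapped between the labels. *Rph3a*, the Rab3 effector rabphilin, had a log2 fold change of 0.011 (adjusted p = 0.978), *Syt13* of 0.043 (adjusted p = 0.789) and the calcium sensor gene *Doc2b* of -0.15 (adjusted p = 0.679), all in edgeR. Over the 17 genes the median was 0.011 and the range -0.89 to 0.27. The lowest value was that of *Sytl5*, for which all 6 KO-labelled libraries also lay below every WT-labelled one. It had only 18 to 37 reads in the WT-labelled libraries and 9 to 16 in the KO-labelled ones. *Sytl5* did not pass 1% FDR (adjusted p = 0.0287 in edgeR).

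Of the 34 genes of the vesicle fusion machinery, on which synaptotagmins act, 2 were lower and 0 higher at 1% FDR (edgeR, with 3 lower and 1 higher at an unadjusted p under 0.05, and 2 lower and 0 higher in DESeq2). Over all genes tested, 2.62% were lower and 0.0244% higher at 1% FDR in edgeR, so a list of this size holds too few calls to be set apart. DESeq2 called 661 lower and 19 higher among all genes, and the share at the unadjusted p was not counted. Both fusion genes called lower encode tomosyns, which bind syntaxin and hold back SNARE assembly. *Stxbp5l* had 21.3 ± 2.42 CPM in the WT-labelled libraries and 9.67 ± 0.292 CPM in the KO-labelled ones (SD, n = 6 each), a log2 fold change of -1.14 (SE 0.07, adjusted p = 2.00e-07 in edgeR). *Stxbp5* had 181 ± 9.37 and 156 ± 6.66 CPM (SD, n = 6 each), a log2 fold change of -0.21 (adjusted p = 0.00551 in edgeR). This smaller difference was not past the threshold without replicates 2 and 3 (adjusted p = 0.0400 in edgeR), in 9 of the 12 fits that left out a single library (all but those without WT-labelled replicates 1 and 4 and KO-labelled replicate 5), or with an offset for transcript length (-0.10, adjusted p = 0.225 in edgeR). The most abundant genes of the list did not pass. The SNARE gene *Snap25* had a log2 fold change of 0.076 (adjusted p = 0.650), the complexin gene *Cplx2* of -0.017 (adjusted p = 0.916) and *Nsf*, which takes SNARE complexes apart, of 0.020 (adjusted p = 0.898), all in edgeR. The median of the 34 genes was -0.011.

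Because *Syt10* is known as an activity-induced transcript, 16 other activity-induced genes were read in the same libraries. At 1% FDR, 0 were lower and 0 higher (edgeR and DESeq2, with 4 lower and 0 higher at an unadjusted p under 0.05 in edgeR). Of these genes 15 had a negative log2 fold change, with a median of -0.16 over the 16 and a lowest value of -0.52. The median over all genes tested was 0.0033. The 16 genes were measured in the same 12 libraries, so their signs are not independent of each other. Neither the count of signs nor the count at the unadjusted p was tested against all genes. *Homer1* was at 126 ± 14.0 and 103 ± 12.7 CPM (SD, n = 6 each; log2 fold change -0.28, adjusted p = 0.0864 in edgeR). The immediate early genes *Egr1* and *Arc* had log2 fold changes of -0.19 (adjusted p = 0.523) and -0.11 (adjusted p = 0.793) in edgeR. *Igf1*, which encodes the cargo linked to *Syt10*, had 9.05 ± 0.822 and 7.63 ± 0.557 CPM (SD, n = 6 each), with 5 of 6 KO-labelled libraries below all WT-labelled ones. Its log2 fold change of -0.25 (SE 0.07) did not pass, with an adjusted p of 0.0604 in edgeR.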

How the data were processed

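Hippocampal poly(A) RNA of 12 mice, 6 labelled *Gadd45a*-WT and 6 *Gadd45a*-KO, was sequenced by the authors from strand-marking libraries. They aligned the reads to NCBIM37/mm9 with TopHat 1.4.1, allowing several alignments per read, and deposited raw read counts per Ensembl gene from HTSeq 0.5.4p3, counted on the reverse strand. Rows that name no gene were left out, of which reads outside genes made 11.5 to 13.9% of the aligned reads listed.

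Symbols matched 37205 of 37991 gene IDs. Positions, lengths and end sequences came from an annotation and genome of the same build (GENCODE M1), an earlier release than the one the authors counted with. Genes were filtered, TMM-scaled and compared with the quasi-likelihood test of edgeR 4.0.16 (R 4.3.3) without covariates, at 1% FDR over all 16399 genes. Each standard error is |log2 fold change| divided by √F. Log2 CPM used a prior count of 2. RPKM divides CPM by exonic length. Exact permutation tests and figures used Python 3.11.15, scipy 1.17.1 and matplotlib 3.10.9. Alternatives were a block for the replicate number, DESeq2 1.42.0, 5% FDR, RLE factors, a minimum of 10 counts in each library, no filter, offsets for length or GC content (splines with 5 degrees of freedom), a prior count of 0.5 for the ratios, and leaving out each library. Leaving out KO-labelled replicates 2 and 3 together was chosen after seeing the data. The edgeR fit was tested on simulated data.

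The members, gene lists, markers and ratios were chosen with earlier results of these data known. Genes named outside the members are those of a list past 1% FDR and up to 3 with the highest mean CPM, and the 5 whose deviations correlate best with *Syt10*. *Tcf7l2* and *Sytl5* were named after their values were seen. *Vamp7* of the fusion list matched no symbol, and of 2 IDs for *Ntng1* the one with more reads was used. Library pairs of one label differed by more than counting error (chi-square per degree of freedom 9.12 to 40.6 over 30 pairs). Depth limits *Syt9* and *Syt10* most, with 109 to 613 and 44 to 90 reads in the KO-labelled libraries.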

Additional observations from a re-analysis of the deposited data

Results flagged for a closer look

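In 5 of 66 groups of 6 libraries, 1 library was set apart from the remaining 5 by Dixon's criterion, where about 3.3 are expected, since chance gives 1 in 20. *Syt6* in KO-labelled replicate 2 was at 14.02 CPM, while the rest of its label ran from 6.77 to 8.003 CPM. *Syt17* in KO-labelled replicate 3 was at 25.55 CPM, with the others between 38.0 and 40.4 CPM. Summed markers of choroid plexus in KO-labelled replicate 3 reached 362.1 CPM, with the others between 174 and 236 CPM, and those of oligodendrocytes 6898 CPM, with the others between 2817 and 3539 CPM. The microglia sum in KO-labelled replicate 6 was 268.5 CPM, with the others between 234 and 247 CPM. The part of these markers in the levels of *Syt6* and *Syt17* was not tested. The high *Syt9* values of KO-labelled replicates 2 and 3 did not meet the criterion, because the 2 libraries lie close to each other.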

How the results depend on the processing

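*Syt10* was lower and 0 members were higher at 1% FDR in every fit, with log2 fold changes of *Syt10* from -1.48 (without KO-labelled replicate 5) to -1.28 (without KO-labelled replicate 4) and adjusted p-values from 1.97e-19 in DESeq2 to 0.000919. *Syt14* and *Stxbp5l* also passed in every fit. All 9 *Syt10* ratios stayed negative, with p under 0.05 in exact permutation tests, in every alternative, from -2.43 to -1.10. They share *Syt10*, which was chosen with its change known, so they add no support for that change. *Syt9* passed in none, with 0.87 without KO-labelled replicate 2, 0.92 without replicate 3 and 0.053 without both.

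With the replicate block, 509 genes were lower and 5 higher, and *Syt10* had a log2 fold change of -1.39 (adjusted p = 0.000919 in edgeR). No member's call changed, and flipping signs within replicate pairs gave an exact permutation p of 0.0312 for each ratio, the smallest possible. Deviations of same-numbered libraries correlated at -0.0761 to 0.262, and 1 of 6 numbers matched its own number best, so the numbers were not taken as pairs.

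Signs turned only for members whose log2 fold change lay near 0, and the cause was not tested. *Syt4* was 0.048 with the GC offset, without and with the replicate block, and -0.037 to 0.015 with a library left out (0.0090 without KO-labelled replicate 6). *Syt7* was 0.0072 with the length offset and 0.0058 with the replicate block added, and -0.065 to 0.012 with a library left out (5.9e-05 without WT-labelled replicate 1). With a library left out, *Syt1* was -0.0024 to 0.062 and *Syt3* -0.0066 to 0.064. *Syt5* was 0.027 without KO-labelled replicates 2 and 3.

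The count of 430 lower and 4 higher genes became 726 and 20 at 5% FDR, and 661 and 19 in DESeq2. It was 275 lower and 9 higher with the length offset, 10 higher with the replicate block added, 15 higher with the GC offset and 16 with the block added. Leaving out each library gave 239 to 467 lower and 3 to 4 higher genes, the fewest without WT-labelled replicate 5 (239), KO-labelled replicates 1 and 6 (248 each), and WT-labelled replicates 6 (261) and 3 (268) and KO-labelled replicate 2 (276). Without KO-labelled replicates 2 and 3 there were 199 lower genes. At 44 to 90 reads, *Syt10* could be placed in each KO-labelled library only within its counting error.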
